A study of Mus musculus with 42 samples.

Results

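The 9 genes of the mouse Ugt1a locus, Ugt1a1, Ugt1a2, Ugt1a5, Ugt1a6a, Ugt1a6b, Ugt1a7c, Ugt1a8, Ugt1a9 and Ugt1a10, are described here out of 47729 genes in the deposited tables. They were chosen by their place in this locus, where they share their last exons, at a time when their values in input and IP were already known. Their fall or rise between IP and input, and its difference between protocols, is therefore a description, in which calls are counted but support nothing. Tests were kept for comparisons that the choice did not use. Livers came from 3 untreated mice of the genotype Gfi1Cre/+;Rpl22HA/HA. In the RiboTag method, cells that express Cre, or whose ancestors did, make the ribosomal protein Rpl22 with an HA tag, and an HA antibody then pulls down tagged ribosomes with their RNA. All mice carry these alleles, so no group lacks the tag or the Cre. Gfi1 is a transcription factor of blood cell development, and the recombination it drives here stays in a cell after Gfi1 is switched off. Input is RNA of the homogenate taken with no antibody, and IP is the RNA pulled down with the HA antibody. Each mouse gave both fractions in 7 protocols, named NEB, NuGEN, SMARTer, SMARTseq0.25, SMARTseq4, TruSeq4 and TruSeq70, so that 42 libraries form 14 groups of 3. SMARTseq0.25 libraries started from 0.25 ng, TruSeq70 libraries from 70 ng and all other libraries from 4 ng. NEB is the NEBNext Ultra Directional kit, NuGEN the Ovation V2 kit, SMARTer the TaKaRa Stranded Total RNA kit with random primers, SMARTseq the TaKaRa SMART-Seq v4 kit and TruSeq the Illumina RNA v2 kit. SMARTseq libraries were sequenced at another centre, so kit and centre cannot be told apart there. The protocols in the labels and the methods put the mice at 30 days of age, while another label puts them at 1 day after birth.

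The study's results list read totals by fraction. For replicate 3 of NEB, NuGEN, SMARTer and TruSeq4 (numbered as in the labels, which the list orders differently), the total of the library labelled input stands there under IP, and that of the library labelled IP under input. The library labelled input was used as IP and the library labelled IP as input for these 8 libraries, and the values with the labels as deposited are given beside the results that change. In TruSeq70, SMARTseq4 and SMARTseq0.25 the labels and that list give the same fractions, and these 3 protocols lead the account. Total exon counts ran from 464199 to 45466334 per library. The 6 SMARTer libraries held at most 762562 each, and the others held at least 3223153. Gfi1 itself was counted in TruSeq70 IP with 27, 16 and 0 counts in mice 1, 2 and 3 and with 0 counts in each input library.

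UDP-glucuronosyltransferases join glucuronic acid from UDP-glucuronic acid to small molecules, which makes them soluble enough for excretion in bile and urine. In the Ugt1a locus each gene has a first exon of its own with its own promoter, which encodes the part that binds the substrate. The exons that follow are common and encode the part that binds UDP-glucuronic acid and the membrane anchor. Ugt1a1 is the enzyme that conjugates bilirubin in hepatocytes, Ugt1a6a and Ugt1a6b take small planar phenols, and Ugt1a9 takes bulkier phenols. Ugt1a7c, Ugt1a8 and Ugt1a10 are named after human enzymes best known from the gut. Hepatocytes are the main site of the family in liver, and the receptors Ahr, Nr1i2 and Nr1i3 are known to induce members there.

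All 9 genes lie on the plus strand of chromosome 1 (GRCm38, GENCODE M21 annotation), and each spans from its own first exon to the common end. Ugt1a10 is the longest at chr1:88055388-88219004 (163617 bases) and Ugt1a1 the shortest at chr1:88211959-88218997 (7039 bases). Between them begin Ugt1a9 at 88070800, Ugt1a8 at 88087813, Ugt1a7c at 88095062, Ugt1a6b at 88103252, Ugt1a6a at 88134809, Ugt1a5 at 88166012 and Ugt1a2 at 88200601. The introns between a first exon and the common exons hold the first exons of the genes further along, so the span of each gene contains the whole of the shorter ones. The 1311 exonic bases common to all 9 lie in 4 runs of 132, 88, 220 and 871 bases, from chr1:88215044 to chr1:88218997. The joints below show what a read can and cannot tell. Each line gives, 5′ to 3′ on the plus strand, the last 30 bases of the coding first exon in lower case and the first 30 bases of the first common exon (chr1:88215044-88215073) in capitals.
Ugt1a10: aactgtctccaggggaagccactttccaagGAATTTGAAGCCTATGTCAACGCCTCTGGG
Ugt1a9: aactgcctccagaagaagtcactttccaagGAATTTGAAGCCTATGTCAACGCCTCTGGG
Ugt1a8: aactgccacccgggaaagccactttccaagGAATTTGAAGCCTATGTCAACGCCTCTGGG
Ugt1a7c: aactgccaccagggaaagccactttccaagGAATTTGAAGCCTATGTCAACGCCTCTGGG
Ugt1a6b: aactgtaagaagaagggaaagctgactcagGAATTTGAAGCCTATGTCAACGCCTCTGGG
Ugt1a6a: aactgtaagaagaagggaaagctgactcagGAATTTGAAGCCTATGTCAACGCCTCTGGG
Ugt1a5: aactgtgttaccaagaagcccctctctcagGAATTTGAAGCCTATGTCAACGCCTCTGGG
Ugt1a2: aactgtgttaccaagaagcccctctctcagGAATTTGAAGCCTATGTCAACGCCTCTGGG
Ugt1a1: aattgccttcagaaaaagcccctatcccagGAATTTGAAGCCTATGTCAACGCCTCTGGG

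The capitals are one and the same in the 9 lines, so a read that lies in the common exons names no member. The lower-case ends are identical in Ugt1a6a and Ugt1a6b, and again in Ugt1a5 and Ugt1a2. Over whole first exons, Ugt1a6a and Ugt1a6b were 94.9% identical, Ugt1a10 and Ugt1a9 87%, Ugt1a8 and Ugt1a7c 82.3%, and Ugt1a5 and Ugt1a2 79.9%. Reads had been trimmed to 60 bases. Of the windows of 60 bases in the first exon of Ugt1a6b, 43.1% also occurred in another member's first exon, against 6.84% for Ugt1a5, 3.78% for Ugt1a9 and 0% for Ugt1a1, Ugt1a7c and Ugt1a8. Counts of Ugt1a6a and Ugt1a6b are uncertain for that reason.

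The deposited tables measure the locus in 2 ways. Exon counts are unnormalized whole numbers of reads or read pairs, and reads that fall on exons of more than 1 gene are left out of them as ambiguous. Exon counts of a member therefore rest on bases that no other gene covers. There are 809 such bases in Ugt1a10, 879 in Ugt1a9, 909 in Ugt1a8, 938 in Ugt1a6b, 892 in Ugt1a5 and 900 in Ugt1a2, all before the common exons. Ugt1a7c has 1915, of which 998 lie after the common exons. Ugt1a6a has 2142, of which 222 lie before the common exons and 1920 between them, because another transcript of the locus, annotated to Ugt1a7c, covers most of its first exon. Ugt1a1 has 385, or 913 when only genes of the same strand are considered, because the antisense gene Gm20528 (chr1:88055393-88218584, minus strand) overlaps the rest.

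RPKM values of the same libraries were made from the whole gene. RPKM multiplied by the full gene span and by the mapped reads came within 0.02 of a whole number of reads in 378 of 378 values of the members, and in only 14 when the exonic length was used. Over all genes, 82.4% to 86.4% of the values above 0 in a library were whole in this way. RPKM of a member thus takes in introns, the first exons of all shorter members and the common exons, whoever they belong to. In TruSeq70 input, 73233, 98358 and 87734 reads lay over the Ugt1a1 span in mice 1, 2 and 3, and these made up 83.3% to 89.1% of the reads over the Ugt1a10 span. RPKM of Ugt1a1 was 147, 162 and 148.1 and that of Ugt1a10 was 7.08, 8.15 and 7.65. Their ratio of 19.4 to 20.7 stands beside a ratio of the span lengths of 23.2. In the same libraries Ugt1a10 had 0, 0 and 26 exon counts. Ugt1a8 had 0 counts in all 6 TruSeq70 libraries, where 3 counts would be at most 0.116 CPM (counts divided by the library's total over genes and scaled to one common total), and an RPKM of 8.56, 9.84 and 9.31 in input.

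**Figure D1:**
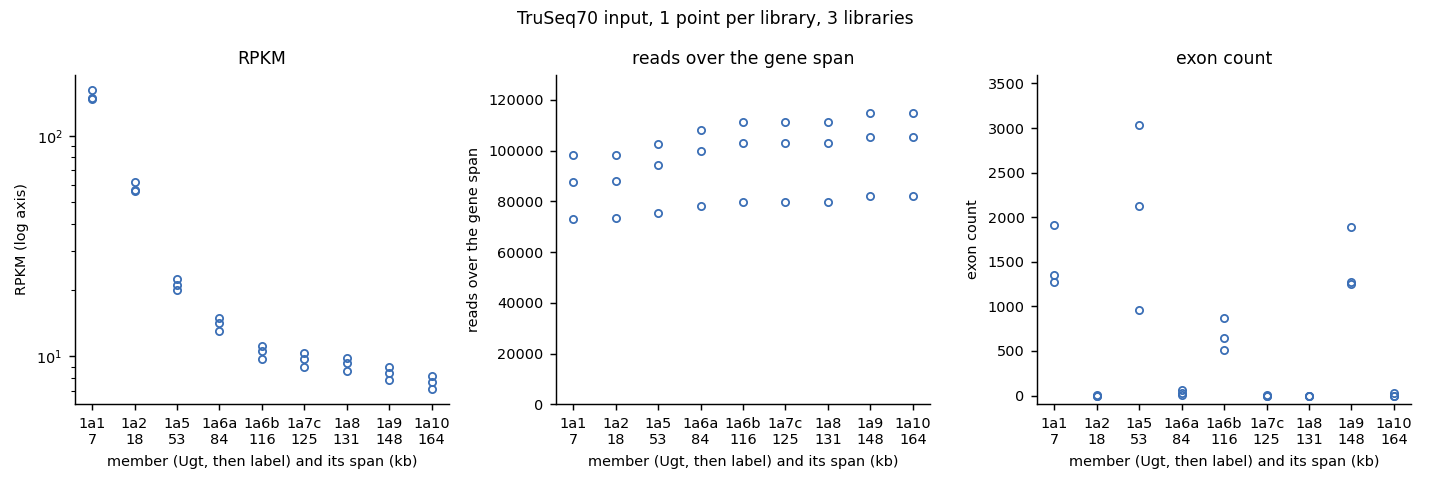
RPKM (log axis, left), reads over the gene span (middle) and exon counts (right) of the 9 members in TruSeq70 input, ordered by span (kilobases under each name), with 1 point per library (3 libraries). RPKM falls as the span grows, from 147 to 162 for Ugt1a1 down to 7.08 to 8.15 for Ugt1a10, reads over the span hardly grow, and exon counts are high in Ugt1a1, Ugt1a5, Ugt1a6b and Ugt1a9 and near 0 in the others.

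In input, 4 members carried nearly all exon counts. TruSeq70 input held 1357, 1915 and 1268 counts of Ugt1a1, 963, 2126 and 3036 of Ugt1a5, 1246, 1885 and 1269 of Ugt1a9 and 513, 867 and 643 of Ugt1a6b in mice 1, 2 and 3. Ugt1a6a had 57, 31 and 8, Ugt1a7c 11, 0 and 0, Ugt1a2 2, 0 and 0. As a share of the members' counts in TruSeq70 input, Ugt1a5 held 34.3% ± 13 (SD, n = 3), Ugt1a1 27.0% ± 6.28 and Ugt1a9 26.0%. Per kilobase of bases of its own, the level in TruSeq70 input was 129 ± 23.3 CPM for Ugt1a1, 72.8 ± 32.2 for Ugt1a5, 54.5 ± 9.25 for Ugt1a9 and 23.3 ± 3.5 for Ugt1a6b (SD, n = 3). The ranges of Ugt1a1 and Ugt1a5 overlapped, as did those of Ugt1a5 and Ugt1a9, and every library of Ugt1a9 stood above every library of Ugt1a6b. Counted over 913 bases, Ugt1a1 would stand lower in this order. The level per kilobase of Ugt1a6a in TruSeq70 input was 0.525 ± 0.465 CPM, and those of Ugt1a10, Ugt1a7c, Ugt1a2 and Ugt1a8 were 0.334 or less.

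**Figure D2:**
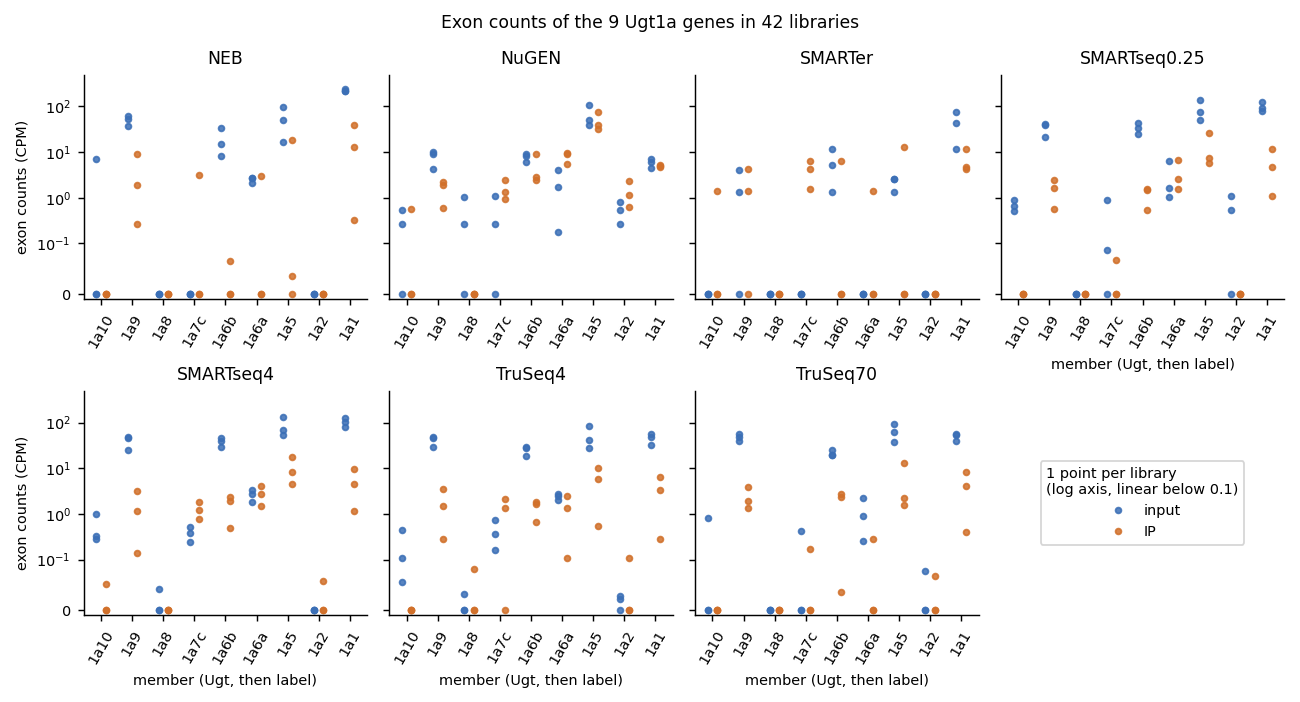
Exon counts (CPM, log axis that is linear below 0.1) of each member in each of the 42 libraries, 1 panel per protocol, input and IP in separate colours. Outside NuGEN and SMARTer, the IP points of Ugt1a1, Ugt1a5, Ugt1a6b and Ugt1a9 lie below the input points, except those of Ugt1a5 in NEB, which overlap, for instance 0.394 to 8.22 CPM against 39.5 to 56.7 CPM for Ugt1a1 in TruSeq70.

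Exon counts of the 4 abundant members were low in IP. Ugt1a1 had 11, 245 and 128 counts in TruSeq70 IP, which is 0.394, 8.22 and 4.11 CPM against 52.6, 56.7 and 39.5 CPM in input. The 2 fractions do not overlap, and mouse 1 had the lowest IP value. Ugt1a5 had 1.58, 2.21 and 13.3 CPM in TruSeq70 IP against 37.3, 62.9 and 94.6 in input. Ugt1a9 had 1.36, 1.88 and 3.98 CPM against 48.3, 55.8 and 39.5, and Ugt1a6b had 0.0358, 2.72 and 2.31 CPM against 19.9, 25.6 and 20.03. Every IP library of these members lay below every input library. The fitted log2 difference between IP and input in TruSeq70 was -4.03 (SE 0.76) for Ugt1a1, -4.02 (SE 0.76) for Ugt1a5, -4.77 (SE 0.39) for Ugt1a9 and -4.18 (SE 0.90) for Ugt1a6b. Input and IP come from the same livers, but the cells whose RNA they hold can differ, since the antibody is directed at tagged ribosomes. Which cells carry the tag, the RNA on their ribosomes and untagged RNA carried into IP cannot be told apart here.

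SMARTseq4 showed the same 4 members low in IP. Ugt1a1 had 103, 128 and 80.2 CPM in SMARTseq4 input and 1.18, 9.45 and 4.46 CPM in IP, Ugt1a5 54.7, 69.5 and 130 against 4.51, 8.38 and 17.7, Ugt1a9 47.4, 46.6 and 25.7 against 0.139, 3.12 and 1.16, and Ugt1a6b 28.8, 40.2 and 47.1 against 0.486, 2.40 and 1.91. The fitted log2 differences in SMARTseq4 were -4.92 (SE 0.54), -3.65 (SE 0.47), -5.26 (SE 0.61) and -5.13 (SE 0.41) for Ugt1a1, Ugt1a5, Ugt1a9 and Ugt1a6b. With 0.25 ng they were -4.57 (SE 0.68), -3.28 (SE 0.62), -4.95 (SE 0.52) and -5.30 (SE 0.51) for Ugt1a1, Ugt1a5, Ugt1a9 and Ugt1a6b.

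Counted over protocols with edgeR's quasi-likelihood test at an adjusted p of 0.05, which here only describes the chosen contrast, 4 of 4 members tested were lower in IP in TruSeq70 (16.7% of all genes tested were lower), 4 of 6 in SMARTseq4 (28.7% of all genes), 4 of 5 in SMARTseq0.25 (17.1%), 4 of 6 in TruSeq4 (24.2%), 4 of 5 in NuGEN (20.9%) and 2 of 5 in NEB (5.34%). No member was higher in IP in these fits, where the share of all genes that were higher was 18.1% in TruSeq70, 30.4% in SMARTseq4, 19.8% in SMARTseq0.25, 25.9% in TruSeq4, 24% in NuGEN, 13.7% in SMARTer and 5.82% in NEB. The 4 were Ugt1a1, Ugt1a5, Ugt1a6b and Ugt1a9 in each protocol but NEB, where they were Ugt1a6b and Ugt1a9. No member passed the filter on low counts in SMARTer, where 12.4% of the genes tested were lower. The filter on low counts left out Ugt1a8 in every protocol and, in TruSeq70, Ugt1a6a with 0 to 57 counts, so these shares are not of all 9 members. The median log2 difference of the members tested ran from -4.57 in SMARTseq0.25 to -2.06 in NuGEN, beside medians over all genes from -0.05 to 0.06.

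On exon counts, the count of members called in NEB changed with single libraries. Ugt1a1 in NEB had 243, 214 and 215 CPM in input and 0.331, 40.1 and 13.1 CPM in IP, and Ugt1a5 had 16.7, 51.5 and 95.8 against 0, 0.0366 and 18.4. The IP library of mouse 1 held 10 exon counts of the members in all, against 1342 and 658 in mice 2 and 3. With the mouse as a block, 4 members were called in NEB, Ugt1a1 and Ugt1a5 among them, and with the fractions as labelled, 0. Without the input library of mouse 1 the count was 0, and it was 1 without the input library of mouse 2, without the library labelled IP of replicate 3 or without the library labelled input of replicate 3. The fractions as labelled also gave 0 members in NuGEN and TruSeq4. Of genes on the pathway and marker lists described below, 0 of 82 tested were called in NEB as labelled. The same count was 0 of 84 in NuGEN and 0 of 92 in TruSeq4. These zeros are thus not particular to the members.

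**Figure D3:**
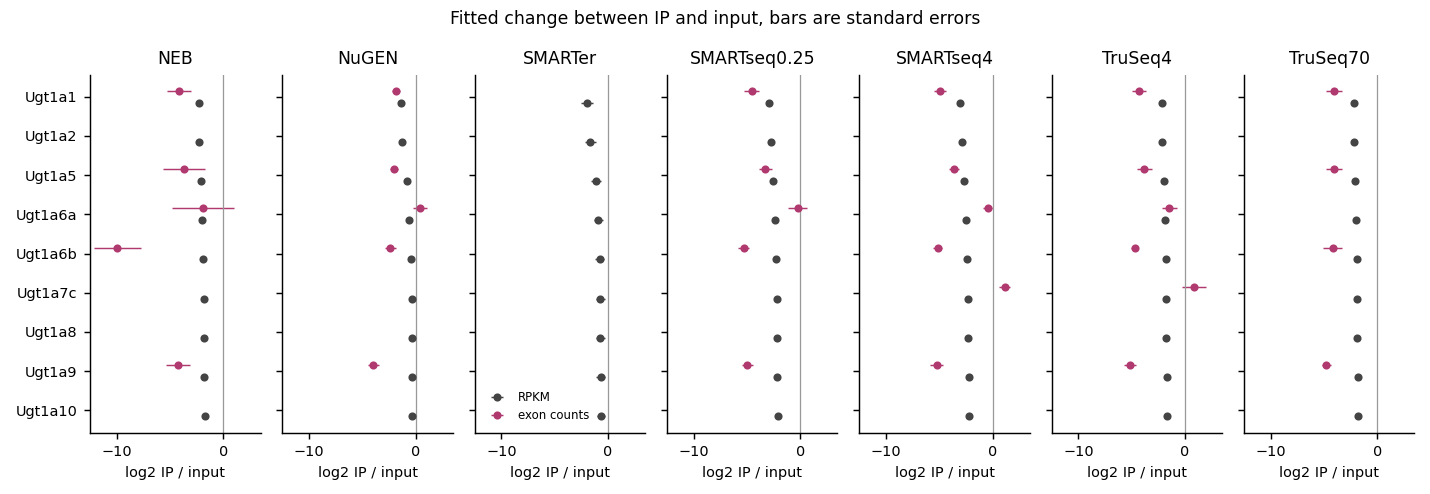
Fitted log2 difference between IP and input of each member in each protocol, from exon counts (edgeR) and from log2(RPKM + 1) (limma), with bars of 1 standard error. RPKM places the 9 members close together in TruSeq70, from -2.21 to -1.80, and farther apart in NuGEN (-1.40 to -0.34) and SMARTer (-1.95 to -0.65), while exon counts spread from -5.26 for Ugt1a9 to 1.15 for Ugt1a7c in SMARTseq4.

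NuGEN IP kept more of the members' exon counts. Ugt1a5 had 39.0, 50.2 and 108 CPM in NuGEN input and 31.9, 39.7 and 74.8 in IP, and these ranges overlap. Its log2 difference without scaling factors was -0.43 for the group means, and the fitted value was -2.06 (SE 0.37), because edgeR scales the libraries so that most genes do not differ. Ugt1a9 fell from 10.3, 9.19 and 4.34 CPM to 0.583, 1.88 and 2.17 in NuGEN. Ugt1a6a went the other way in CPM in NuGEN, with 1.74, 4.07 and 0.181 in input and 9.53, 9.21 and 5.59 in IP, while its fitted value was 0.44 (SE 0.67) and was not called.

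Ugt1a6a had few exon counts. In CPM its fractions overlapped in every protocol with at least 10 counts but NuGEN. There every IP library lay above every input library with the exchanged fractions, and the fractions overlapped with the labels as deposited. In TruSeq70 it had 57, 31 and 8 counts in input and 0, 0 and 9 in IP, a log2 ratio of the mean CPM of -3.55, and was not tested. In SMARTseq4 it had 64, 81 and 55 counts in input and 21, 82 and 47 in IP, which is 2.71, 3.29 and 1.82 CPM against 1.46, 4.19 and 2.72, and the fitted value was -0.46 (SE 0.42). Ugt1a6a was called in no protocol with all libraries, and in TruSeq4 it was called lower when the library labelled input of replicate 3 was left out (-2.23). Its share of the members' counts was 0.974% ± 0.293 in SMARTseq4 input and 13.5% ± 3.93 in IP (SD, n = 3). Of the 2142 bases of its own, 1920 lie between the common exons. Reads there from unspliced RNA of another member would count as Ugt1a6a, and their part was not tested. Reads over the piece of the locus from the start of Ugt1a6a to the start of Ugt1a5, which holds its first exon and the intron after it, came to 3986, 6619 and 8547 in SMARTseq4 input and 257, 446 and 359 in IP. In TruSeq70 the same piece held 2689, 5455 and 5741 reads in input and 54, 682 and 478 in IP. Relative to the mapped reads it was lower in IP in all 3 mice in each protocol but NuGEN, where it was higher in all 3, by 0.61, 0.46 and 0.66 on the log2 scale, and with the labels as deposited mouse 3 turns round in NEB, NuGEN, SMARTer and TruSeq4.

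Ugt1a7c was counted rarely. SMARTseq4 gave 9, 6 and 16 counts of Ugt1a7c in input and 11, 36 and 21 in IP, a fitted difference of 1.15 (SE 0.53) that was not called, and SMARTseq0.25 gave 0, 22 and 2 against 0, 1 and 0. Ugt1a2 reached at most 27 counts in a library, Ugt1a8 at most 8, and Ugt1a10 at most 184, in NEB input of mouse 2, with 0 in the other 5 NEB libraries.

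On RPKM, again as a description of the chosen contrast, 9 of 9 members were lower in IP at the same threshold (limma, with log2 of RPKM + 1) in TruSeq70 (17.6% of all genes tested were lower), SMARTseq4 (39%), SMARTseq0.25 (36.8%), TruSeq4 (19.5%), NEB (8.25%) and NuGEN (6.47%), and 2 of 9, Ugt1a1 and Ugt1a2, in SMARTer (7.04%). These are not 9 measurements, since the reads over the Ugt1a1 span are part of every value. The mean log2 ratio of RPKM over the mice ran from -2.37 to -2.25 across the 9 members in TruSeq70 and from -3.20 to -3.10 in SMARTseq4. It spread more widely in NuGEN, from -1.45 to -0.46, and in SMARTer, from -2.18 to -1.34. RPKM of Ugt1a1 itself was 29.0, 29.7 and 38.1 in TruSeq70 IP, and its fitted difference was -2.21 (SE 0.17), against -4.03 on exon counts. The median difference of all genes on this scale was 0.64 in NuGEN, -0.36 in SMARTseq0.25, -0.33 in SMARTseq4, 0.17 in TruSeq4 and 0.15 in TruSeq70, so RPKM differences there stand beside a shifted middle. With the mouse as a block, the count of members on RPKM was 5 in NuGEN and 8 in SMARTer, and with the fractions as labelled it was 0 in NEB, NuGEN, SMARTer and TruSeq4. The count in NuGEN was 4 without any single input library or without the IP library of mouse 2. The count in SMARTer was 4 without the input library of mouse 2 or the library labelled input of replicate 3, and 0 without any of the other 4.

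SMARTer held between 4 and 61 exon counts of all 9 members in a library. Ugt1a1 had 56, 9 and 33 counts in SMARTer input and 2, 3 and 8 in IP. With the mouse as a block, or with DESeq2, Ugt1a1 was tested in SMARTer and called lower, with log2 differences of -3.07 (SE 0.66) and -3.05 (SE 0.76). It was also tested and called when the input library of mouse 2, the IP library of mouse 1 or 2, or the library labelled input of replicate 3 was left out. The antisense gene Gm20528 had 1033 to 3558 CPM in SMARTer input and 257 to 728 in IP, beside 53.4 ± 30.4 CPM (SD, n = 3) for the 9 members together in input. In NEB, a kit named directional, Gm20528 had 35.4 to 44.5 CPM in input and 13.1 to 16.5 in IP, and in NuGEN, SMARTseq and TruSeq it had 0 counts in every library. Gm20528 shares 922 exonic bases with Ugt1a1, and where strand is ignored, reads on them are left out as ambiguous. The 0 counts therefore do not show that this RNA was absent. The study names SMARTer as its only kit with strand-specific libraries and left strand out of its analysis. The strand setting of the counter is not given in the sources used here, and without it reads of Gm20528 and of the members cannot be told apart. In SMARTer input Gm20528 had 2669, 788 and 2299 counts, where 9322, 2884 and 8071 reads lay over the Ugt1a1 span. In SMARTer IP it had 338, 166 and 502 counts beside 1358, 602 and 2250 reads. The part of strand in the SMARTer counts of the members was not tested. From 43.1% to 73.2% of the SMARTer reads that fell on genes were ambiguous.

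Exon counts of the members and reads over the Ugt1a1 span did not fall by the same factor. The study reports more coverage at the 3′ end of transcripts in IP than in input, except in SMARTer. Its part in the ratio that follows was not tested. In TruSeq70 there were 56.7, 69.4 and 71.2 exon counts of the 9 members per 1000 reads over the Ugt1a1 span in input, and 5.38, 26.7 and 33.0 in IP. The ratio was lower in IP in every mouse in NEB, SMARTseq0.25, SMARTseq4, TruSeq4 and TruSeq70. In NuGEN it was higher in IP in every mouse, with 71.5, 82.9 and 140 in input and 127, 134 and 201 in IP, and in SMARTer likewise, with 6.54, 5.55 and 5.45 against 11.8, 6.65 and 6.22. With the labels as deposited, replicate 3 turns round in NuGEN (201 in input, 140 in IP), SMARTer (6.22 and 5.45), NEB (60.6 and 137) and TruSeq4 (36.7 and 82.0), so that mice 1 and 2 alone carry these directions there. Mouse 1 had the lowest IP ratio in NEB (0.956), TruSeq4 (3.75), TruSeq70 (5.38), SMARTseq4 (13.6) and SMARTseq0.25 (15.6). The reads over the Ugt1a1 span made up 33.7% to 35.3% of the reads over the Ugt1a10 span in NuGEN IP and 67.7% to 69.1% in NuGEN input, and 33.1% to 34.4% against 57.5% to 62.7% in SMARTer. In the other 5 protocols this share was between 77.3% and 97.1% in both fractions.

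**Figure D4:**
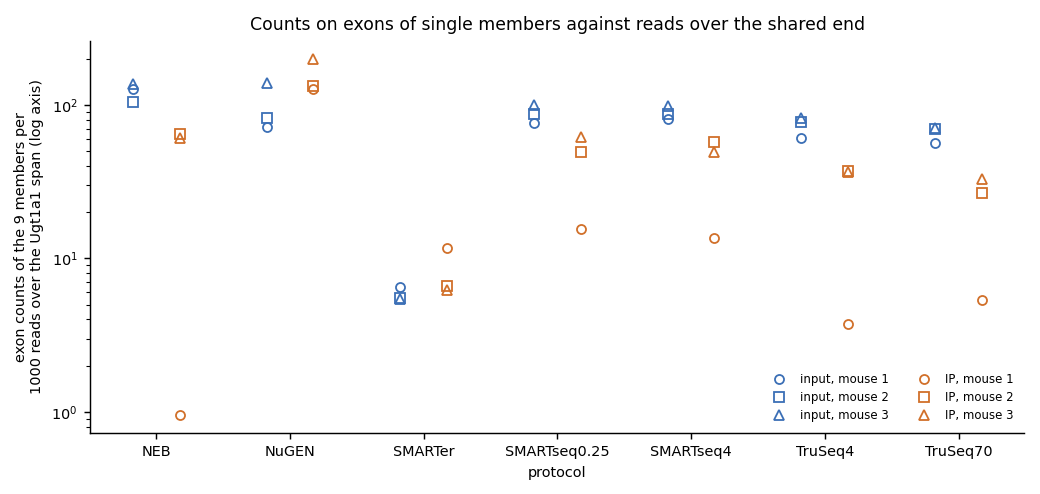
Exon counts of the 9 members per 1000 reads over the Ugt1a1 span (log axis) in each library, by protocol and fraction, with a marker shape for each mouse. The values of a mouse fall from input to IP in 5 protocols, most in mouse 1 (56.7 to 5.38 in TruSeq70), and rise in NuGEN and SMARTer.

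The change of the difference between IP and input with the protocol was fitted against TruSeq70 by the interaction of protocol and fraction in edgeR. It is made of the values of the chosen contrast, so its calls describe the members and support nothing. No member passed in any of the 6 fits, and 0.00652% of all genes passed for NEB, 0.279% for NuGEN, 1.62% for SMARTer, 0.167% for SMARTseq0.25, 0.37% for SMARTseq4 and 0% for TruSeq4. At an unadjusted p under 0.05 stood Ugt1a6b in NEB, Ugt1a1, Ugt1a5 and Ugt1a6a in NuGEN, Ugt1a5 and Ugt1a9 in SMARTer and Ugt1a6a in SMARTseq4. For Ugt1a5 in NuGEN the difference of log2 differences was 1.88 (SE 0.84, adjusted p = 0.37 in edgeR). With the mouse as a block it was 2.35 (SE 0.40, adjusted p = 0.0042 in edgeR). The fit without the block did not pass, and the NuGEN fits use the exchanged replicate 3, so no conclusion is drawn. Without the filter on low counts, Ugt1a5 and Ugt1a1 passed in NuGEN and Ugt1a5 in SMARTer.

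The amount of RNA was compared within a kit, on the same mice. Per the methods, TruSeq libraries of 4 ng also had no size selection, less end-repair mix and another number of PCR cycles. Amount and protocol cannot be told apart there. Between TruSeq4 and TruSeq70 no member passed edgeR's test, 0 of 6 tested in input (0.981% of all genes passed) and 0 of 4 in IP (0.0392%). The log2 difference of TruSeq4 from TruSeq70 in input was -0.08 (SE 0.21) for Ugt1a1, -0.31 (SE 0.43) for Ugt1a5, -0.16 (SE 0.20) for Ugt1a9 and 0.23 (SE 0.20) for Ugt1a6b. With the mouse as a block, Ugt1a5 was lower in TruSeq4 input by -0.35 (SE 0.10, adjusted p = 0.0073 in edgeR), with 27.7, 42.6 and 83.5 CPM against 37.3, 62.9 and 94.6. It was lower in 3 of 3 mice, of which mouse 3 rests on the exchanged fractions. With the labels as deposited, Ugt1a5 in TruSeq4 input ran from 9.895 to 42.6 CPM. The fit without the block did not pass, so no conclusion is drawn. In IP the log2 differences between the TruSeq amounts had SE of 1.01 or more for Ugt1a1, Ugt1a5, Ugt1a9 and Ugt1a6b, so only large differences could have been seen there.

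Between SMARTseq0.25 and SMARTseq4, 0 of 6 members passed in input and 0 of 6 in IP, as did 0% of all genes in each. The log2 difference in input was -0.07 (SE 0.23) for Ugt1a1, 0.08 (SE 0.44) for Ugt1a5, -0.23 (SE 0.31) for Ugt1a9 and -0.16 (SE 0.26) for Ugt1a6b. The 1 member at an unadjusted p under 0.05 in edgeR was Ugt1a7c in IP, with 0, 1 and 0 counts at 0.25 ng and 11, 36 and 21 at 4 ng (log2 difference -5.36, SE 1.29, adjusted p = 1). DESeq2 called no member in these 4 comparisons either, and Ugt1a7c in IP and Ugt1a2 in input had an unadjusted p under 0.05 between the SMARTseq amounts.

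The ratio of Ugt1a1 to Ugt1a9 in input was compared between kits, and no comparison with TruSeq70 passed its test. For each count of Ugt1a9 there were 1.09, 1.02 and 0.999 counts of Ugt1a1 in TruSeq70 input and 1.05, 1.16 and 1.06 in TruSeq4 input. The same ratio was 2.17, 2.74 and 3.12 in SMARTseq4, 2.37, 3.02 and 3.601 in SMARTseq0.25, 4.46, 5.72 and 3.54 in NEB and 0.701, 0.671 and 1.04 in NuGEN. Every NEB and SMARTseq library lay above every TruSeq70 library, with p = 0.1 by a two-sided exact permutation test, the smallest p that 3 against 3 can give (adjusted p = 0.167 over 5 protocols compared). For NuGEN and TruSeq4 the exact permutation p was 0.3. With the labels as deposited, the ratio in replicate 3 would be 7.07 in NEB, 2.14 in NuGEN and 2.31 in TruSeq4. SMARTer was left out because a library had 0 counts of Ugt1a9. Ugt1a5 held 68.8% ± 14.8 of the members' counts in NuGEN input and Ugt1a1 held 63.8% ± 7.55 in NEB input (SD, n = 3), where TruSeq70 had 34.3% and 27.0%. Ugt1a1 has 385 bases of its own when strand is ignored and 913 when only genes of the same strand are considered. Gm20528, which covers the rest, had 219 to 1169 counts in NEB libraries and 0 in NuGEN, SMARTseq and TruSeq. The part of strand in the Ugt1a1 ratios and shares was not tested.

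**Figure D5:**
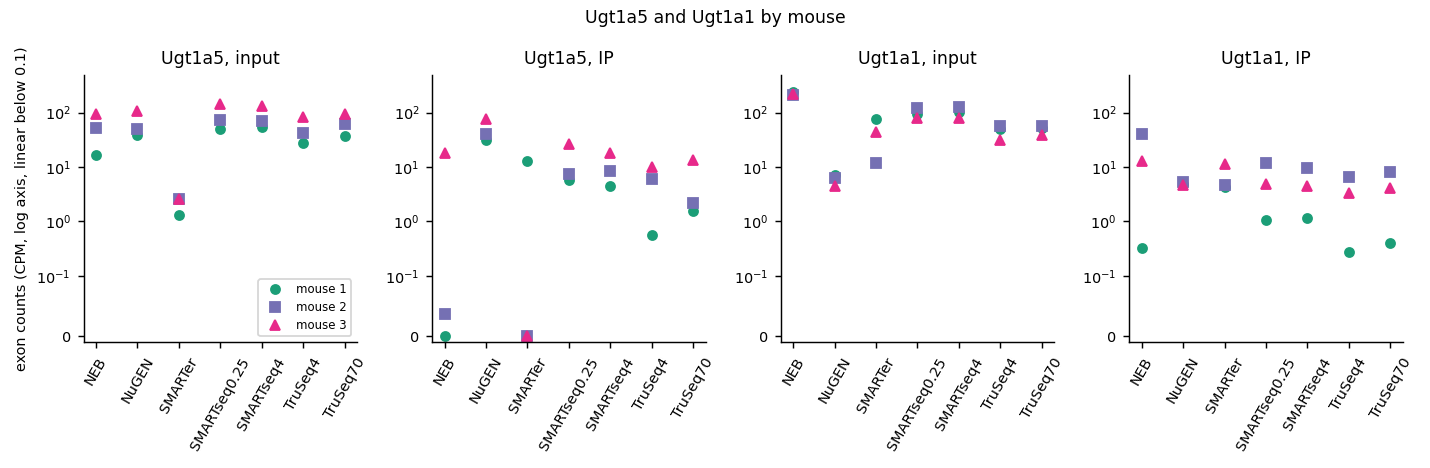
Exon counts (CPM, log axis that is linear below 0.1) of Ugt1a5 and Ugt1a1 by mouse in each protocol, input and IP in separate panels. Ugt1a5 stands highest in mouse 3 and lowest in mouse 1 outside SMARTer, for instance 94.6 against 37.3 CPM in TruSeq70 input.

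The 3 mice kept an order in Ugt1a5. It was highest in mouse 3 and lowest in mouse 1 in the 6 protocols with at least 10 counts, in input and again in IP. These are repeated libraries of the same RNA and not further mice, and with 1 mouse per value no test was made. The order in TruSeq70, SMARTseq4 and SMARTseq0.25 does not rest on the exchanged libraries. SMARTseq4 input had 54.7, 69.5 and 130 CPM of Ugt1a5 and SMARTseq0.25 input 49.5, 74.1 and 142. Ugt1a5 held 48.6% of the members' counts in TruSeq70 input of mouse 3, against 23.2% and 31.2% in mice 1 and 2. Ugt1a1 showed another order in IP, highest in mouse 2 in 6 of 6 protocols and lowest in mouse 1 in 5 of 6. Ugt1a9 was lowest in mouse 1 in IP in 6 of 6 protocols.

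The other genes of glucuronidation were followed in lists that were likewise drawn up with earlier results known. Of 13 other UDP-glucuronosyltransferases, 9 of the 10 tested were lower in IP in TruSeq70 (16.7% of all genes tested) and 0 higher (18.1%). Their median log2 difference was -3.0 beside -0.03 for all genes. All 9 tested were lower in SMARTseq4 (28.7% of all genes) and all 10 in TruSeq4 (24.2%). Ugt2b1, an enzyme of the Ugt2b cluster that conjugates steroids and drugs, had 311, 276 and 244 CPM in TruSeq70 input and 43.4, 40.0 and 56.3 in IP (log2 difference -3.0, SE 0.20). Ugt2a3, Ugt2b5, Ugt2b34, Ugt2b35 and Ugt2b36 were likewise lower in 6 of 7 protocols and Ugt3a2 in 7 of 7. Counts over the 7 protocols use the exchanged fractions, and with the labels as deposited 0 genes of the pathway and marker lists were called in NEB, NuGEN, SMARTer or TruSeq4 (edgeR), and 0 had an unadjusted p under 0.05. The fitted values of these named enzymes ran from -3.65 for Ugt2b1 to -1.17 for Ugt2b35.

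Genes that make, move or split UDP-glucuronic acid were 6, of which 3 were lower in IP in TruSeq70 and 0 higher (16.7% and 18.1% of all genes tested), with a median of -0.75. Pgm1 and Ugp2, enzymes on the way to UDP-glucose, were lower in 6 of 7 protocols, and in TruSeq70 the log2 difference was -1.71 (SE 0.19) for Pgm1 and -1.61 (SE 0.22) for Ugp2. Of 9 genes of bilirubin formation and transport, 3 were higher (18.1% of all genes tested) and 3 lower (16.7%) in TruSeq70. Hmox1, which opens the haem ring on the way to bilirubin, had 19.8, 21.7 and 17.9 CPM in TruSeq70 input and 481, 887 and 690 in IP (log2 difference 4.67, SE 0.25), and it was higher in 7 of 7 protocols. Abcc2, which exports bilirubin glucuronides into bile, had 405, 488 and 351 CPM in TruSeq70 input and 66.3, 95.4 and 101 in IP (log2 difference -2.69, SE 0.20). It was lower in 7 of 7, as the uptake carriers Slco1b2 and Slco1a4 were in 6 of 7. Of 8 transcription factors known to act on the locus, 5 were lower in TruSeq70 (16.7% of all genes tested). Nr1i2 and Hnf4a were lower in 6 of 7 protocols (log2 difference of Hnf4a in TruSeq70 -2.08, SE 0.20).

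Markers of cell types were counted in the same way, where 16.7% of all genes tested were lower in IP and 18.1% higher in TruSeq70. The share lower was 20.9% in NuGEN, 24.2% in TruSeq4, 28.7% in SMARTseq4 and 17.1% in SMARTseq0.25. Of 12 hepatocyte markers, the 11 found in the tables were all lower in IP in TruSeq70, NuGEN, TruSeq4 and both SMARTseq protocols, and their summed level in TruSeq70 went from 157800 to 175800 CPM in input to 31300 to 33640 in IP. Kupffer cell markers, of the resident macrophages of liver, were higher in 10 of 10, from 460 to 537 CPM in input to 19340 to 28190 in IP. Erythroid markers, 5 of 6 higher, went from 1557 to 2509 CPM to 129500 to 225800 in TruSeq70. Lymphocyte markers were higher in 8 of 8 and neutrophil markers in 3 of 4 tested there. Of the other lists in TruSeq70, liver endothelial markers were higher in 1 and lower in 3 of 8, stellate cell markers lower in 5 of 6 and cholangiocyte markers lower in 2 of 5 tested. No hepatocyte, Kupffer cell or erythroid marker was at 0 in TruSeq70. The median log2 difference of the hepatocyte markers in TruSeq70 was -2.38, on exon counts over all their exons. It was -4.11 for the 4 members tested, whose counts rest on bases before the common exons. Ugt1a1 had -2.21 on log2(RPKM + 1) over its whole span. These are unlike measures. The study reports more coverage at the 3′ end in IP than in input, except in SMARTer. The part of this coverage and of the cell types in the members' results was not tested.

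Ugt1a1 had the highest sum of counts among the members, and 11454 genes were compared with it by Pearson's r of log2(CPM + 1) over the 14 group means. The 5 most alike were Acss2, an acetyl-CoA synthetase (r = 0.951), Apoa4, an apolipoprotein (0.940), Lsr, a lipoprotein receptor (0.926), Gm5499 (0.905) and Nags, which makes N-acetylglutamate (0.902). The groups share mice and, in pairs, kits, so these values describe the 14 means only.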

How the data were processed

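RNA of input and IP from 3 mouse livers was sequenced in 42 libraries. Per the labels and the methods, the authors trimmed adapters with Trimmomatic and reads to 60 bases with the FASTX Toolkit, and aligned each library to GRCm38 with TopHat. The submitters' processing notes name GRCm38 and TopHat. The authors deposited exon counts, whole numbers per Ensembl gene with no normalization. The authors also deposited RPKM values, relative to gene length and mapped reads. HTSeq and Bedtools are both named, and strand settings were not given in the sources used here. Replicates were not pooled.

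Sample groups came from the labels, with the fractions of replicate 3 exchanged in 4 protocols after the read totals in the study's results, and results on NEB, NuGEN, SMARTer and TruSeq4 rest on that exchange. Members and gene lists were chosen with earlier results of these data known. CPM was computed from counts over genes, leaving out the closing lines for reads on no feature, ambiguous reads and the like. Lines of ambiguous reads serve only for the shares given. Each protocol was fitted by itself over all genes with edgeR 4.0.16 (TMM, filterByExpr, glmQLFit, glmQLFTest) on counts and with limma 3.58.1 (trend) on log2(RPKM + 1) for genes with a mean RPKM of at least 1, in R 4.3.3, with Benjamini-Hochberg adjustment over all genes tested and a threshold of 0.05. A difference on log2(RPKM + 1) understates the change of low genes. Fits with DESeq2 1.42.0, RLE factors, no filter, a pseudocount of 0.1, the labelled fractions, the mouse as a block and each library left out were the alternatives. All 9 members were named. A gene of the pathway lists was named when called in at least 6 of 7 protocols with 1 sign, and the 5 genes most alike were sought among genes with a mean CPM of at least 5. Gene models and transcript sequence were taken from GENCODE M21 (GRCm38), where 47224 of the 47729 gene identifiers were found, and not from the Ensembl release of the files.

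Replicate numbers stand for the 3 mice. Input and IP of 1 mouse deviated together from their group means, with a correlation across genes of 0.108 to 0.457 in 6 protocols and of 0.0227 to 0.0350 in NEB, and each library correlated best with its own number. The tests were checked on simulated counts of TruSeq70 and SMARTer with 200 changed genes. Of these, edgeR recovered 99.5% in TruSeq70 (14898 genes in all) and 99% in SMARTer (3301 genes in all). Recovery at the levels and spread of the 9 members was not tested, and no member passed the filter on low counts in SMARTer. Total exon counts, which leave out ambiguous reads and reads on no feature, ran from 464199 to 45466334 per library. A gene with 0 counts may still have up to 3, which covers counting error only.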

Additional observations from a re-analysis of the deposited data

Results flagged for a closer look

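Exon counts of the 9 members per 1000 reads over the Ugt1a1 span moved in opposite directions between protocols. In NuGEN they were higher in IP in every mouse, with a mean log2 ratio of IP to input of 0.68 ± 0.15 (SD, n = 3), and in SMARTer they were higher in every mouse, with 0.43 ± 0.36. In NEB, SMARTseq0.25, SMARTseq4, TruSeq4 and TruSeq70 they were lower in every mouse, with means from -2.98 ± 3.55 in NEB to -1.28 ± 0.891 in SMARTseq0.25. Mouse 1 fell furthest in each of these 5 protocols, and without it the mean was -0.936 in NEB, -0.768 in SMARTseq0.25, -0.805 in SMARTseq4, -1.11 in TruSeq4 and -1.24 in TruSeq70. In SMARTer it was 0.226 without mouse 1. With the fractions as labelled, mouse 3 would turn round, to -0.53 in NuGEN, -0.19 in SMARTer, 1.18 in NEB and 1.16 in TruSeq4, so that no direction would hold in every mouse there. The difference between the protocols was not tested. SMARTer rests on 4 to 61 counts per library, and the part of strand in these counts was not tested. NuGEN and SMARTer are also the protocols where reads over the Ugt1a1 span were the smallest part of the reads over the Ugt1a10 span in IP, 33.7% to 35.3% and 33.1% to 34.4%, and the part of this in the ratio was not tested.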

How the results depend on the processing

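Counts of members called. With the fractions as labelled, 0 members were called in NEB, NuGEN and TruSeq4 on exon counts and 0 in NEB, NuGEN, SMARTer and TruSeq4 on RPKM. No gene of the pathway and marker lists was called there on exon counts either. With the mouse as a block, the replicate block, 4 were called in NEB and 1 in SMARTer on exon counts, 5 in NuGEN and 8 in SMARTer on RPKM, 1 between the TruSeq amounts in input and 1 in the interaction, and no other count moved by over 1.5 times. Without a filter on low values, 4 were called in NEB and 1 in SMARTer on exon counts, 0 in SMARTer on RPKM and 3 in the interaction. DESeq2 called 1 in SMARTer. Leaving out each library in turn gave 0 to 3 in NEB and 0 to 1 in SMARTer on exon counts, and 4 to 9 in NuGEN and 0 to 4 in SMARTer on RPKM. The other 151 values for these counts stayed within 1.5 times. Counts under the alternatives stand here without the share of all genes, so they show only how far the calls move. Of the values of single members, 470 kept direction and side of the threshold, 33 moved, 23 lost and 9 gained the call, and 7 reversed. As labelled, Ugt1a5 was 0.24 in NEB, 0.30 in NuGEN and 0.24 in TruSeq4, and Ugt1a6a was -0.13 in NuGEN. Leaving out each library in turn gave Ugt1a6a -0.055 to 1.45 in NuGEN, the lowest without the library labelled IP of replicate 3, and -0.98 to 0.93 in SMARTseq0.25, with 0.93 without input replicate 2 and 0.06 without IP replicate 1. The cause was not tested. Whole reads were recovered from RPKM for 14 member values with the exonic length and 11 with that of protein-coding transcripts, against 378 with the span. SMARTer libraries had 30252348 to 49823890 mapped reads but 4 to 61 exon counts of the members. These counts were too few for a test of most members.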
